A study of Homo sapiens with 6 samples.

Results

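The miR-193 and miR-365 clusters were followed in Huh7 cells, a human hepatoma cell line, by 6 mature miRNAs chosen by name because the clusters have been linked to PPAR-alpha and fat metabolism. These 6 were hsa-miR-193a-3p, hsa-miR-193a-5p, hsa-miR-193b-3p, hsa-miR-193b-5p, hsa-miR-365a-3p and hsa-miR-365b-5p, out of 2588 mature human miRNAs in the table, of which 1366 had a count in any sample. The same 4 precursors give 2 more products, hsa-miR-365a-5p and hsa-miR-365b-3p, which were in the table as well and are described beside the 6. The overexpression group was 3 samples of Huh7 cells transfected by Lipofectamine 2000 with a plasmid carrying hsa_circ_0098181, a circular RNA from SOX5. The control group was 3 samples transfected in the same way with the control plasmid, as the sample name NC was read beside the stated treatment, and RNA of all 6 was taken after 48 h. The transfection was transient, and transfected and untransfected cells of a culture were sequenced together, so that a change in few cells and a smaller change in all cells cannot be told apart. The labels do not say whether samples of a group were separate cultures, and p-values then measure the spread between these samples, which may be technical. The circular RNA itself is not counted in a miRNA table, so that its overexpression was not checked here.

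The miR-193b and miR-365a precursors lie close together, as do the miR-193a and miR-365b precursors, and the pairs are paralogs of each other. A precursor is cut to a duplex whose 5p and 3p arms are named for the end of the hairpin they come from, and often a single arm is kept in the Argonaute complex. The kept arm finds mRNAs through its seed, bases 2 to 8 from the 5′ end. The cluster of miR-193b and miR-365a is known for its abundance in brown fat, where it has been placed downstream of PRDM16 and PPAR-alpha, the nuclear receptor that drives fatty acid oxidation in the liver. In tumors, miR-193b-3p is known as a repressor of the urokinase gene PLAU, and both miR-193b-3p and miR-365a-3p as repressors of cyclin D1.

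In RefSeq (GRCh38.p14), all 8 products were matched to a mature sequence. The sequences are shown because the seeds divide the products into families and because a pair of rows shares a single sequence. Each is written 5′ to 3′ with the seed in capitals.
hsa-miR-193a-3p: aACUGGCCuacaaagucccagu
hsa-miR-193b-3p: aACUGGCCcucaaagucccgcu
hsa-miR-193a-5p: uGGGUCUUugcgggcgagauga
hsa-miR-193b-5p: cGGGGUUUugagggcgagauga
hsa-miR-365a-3p and hsa-miR-365b-3p: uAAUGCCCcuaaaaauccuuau
hsa-miR-365a-5p: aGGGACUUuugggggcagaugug
hsa-miR-365b-5p: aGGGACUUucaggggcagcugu

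The 3p products of miR-193a and miR-193b shared the seed ACUGGCC, and no other human miRNA in the RefSeq table had it. They differed at 4 of 22 bases (U9C, A10U, A20G and G21C, counted from the 5′ end of miR-193a-3p, with its base first). The 5p products also differed at 4 of 22 bases (U1C, U5G, C6U and C11A, counted in the same way), and positions 5 and 6 lie in the seed, so that these arms have different seeds. The miR-365a-5p and miR-365b-5p products shared the seed GGGACUU, and the 3p products of miR-365a and miR-365b were identical over all 22 bases. G and C made up 31.8% of the bases of miR-365a-3p, against 59.1% in 4 of the other products.

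MIR193B (ENSG00000207639.1) lies on the plus strand of chromosome 16 at chr16:14303967-14304049, and MIR365A (ENSG00000199130.3) follows after 5235 bases at chr16:14309285-14309371. Both are in introns of the non-coding host gene MIR193BHG (ENSG00000262454.3). MIR193A (ENSG00000207614.1) lies on the plus strand of chromosome 17 at chr17:31559996-31560083, outside any other annotated gene, and MIR365B (ENSG00000283978.1) follows after 15327 bases at chr17:31575411-31575521. MIR365B overlaps an exon of the non-coding gene AC003101.1 (ENSG00000228768.3). The annotation is GENCODE release 29, and its positions of the 4 precursors were the same as in RefSeq.

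Libraries held 7144798 to 10786295 counts. Levels are given as CPM, the count scaled to the library's total after TMM scaling, edgeR's correction for library composition, whose factors were 0.921 to 1.09. Control replicate 3 stood apart, since its median absolute log2 difference from the other controls was 0.207 and 0.226 over 248 abundant miRNAs, against 0.0651 between those controls. Hepatocyte miRNAs (miR-122-5p, miR-192-5p, miR-194-5p and miR-148a-3p) summed to 403377 to 435127 TPM, which is the same scale without TMM factors. The sum of 4 blood miRNAs was 11.6 to 12.7 TPM in the overexpression samples and 15.5 to 18.3 TPM in the controls. Most of it came from miR-142-3p (11.7 TPM on average), at 9.59 CPM with overexpression and 13.5 CPM in the controls. Of the same list, miR-223-3p went the other way, at 2.11 and 1.47 CPM. The sum of 3 muscle miRNAs was 1.45 to 2.24 TPM. The 3 miRNAs of stroma and vessel summed to 3274 to 3353 TPM in the overexpression samples and 3153 to 3257 TPM in the controls. Almost all of this came from miR-126-3p (3180 TPM on average). In CPM, the groups did not overlap for 15.4% of the 552 miRNAs with enough counts to be tested. None of the 4 lists had a member at 0 in all samples. The part of these differences in the results was not tested. Values of a group are given below in the order of replicates 1 to 3.

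The 8 products fell into 3 bands of abundance, which can be seen in the plot of levels by sample. The upper band held miR-365b-3p and miR-365a-3p, with mean levels over the 6 samples of 228 and 222 CPM, ranks 113 and 116 of the 1366 miRNAs with a count. The middle band held miR-193a-5p (33.4 CPM), miR-193b-3p (15.3 CPM) and miR-193b-5p (13.7 CPM). The lowest band held miR-365a-5p (1.67 CPM), miR-193a-3p (1.26 CPM) and miR-365b-5p (0.781 CPM), each with under 100 counts over all 6 libraries. A small RNA is read whole, so that counts of miRNAs need no length correction, but ligation favors some sequences and levels of different miRNAs are therefore approximate.

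**Figure D1:**
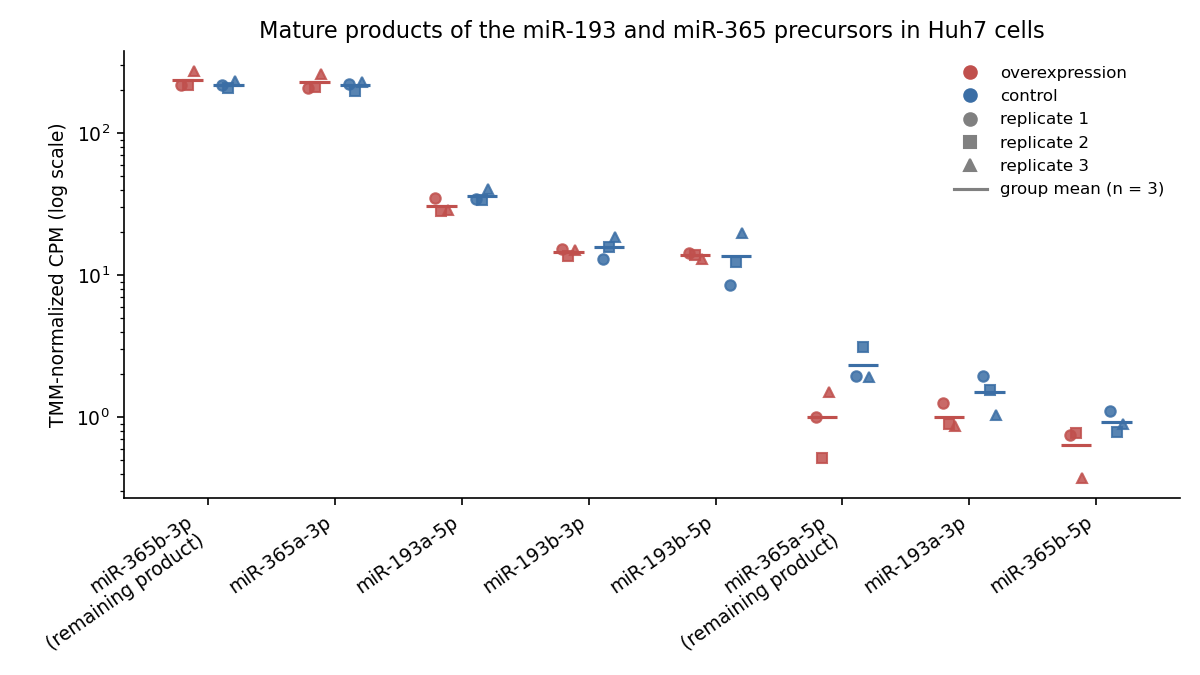
TMM-normalized CPM on a log scale of the 8 mature products in the 3 overexpression and 3 control samples, with points by replicate and a line at each group mean. The upper band sits at 198 to 274 CPM, and the lowest band at 0.374 to 3.13 CPM.

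Some neighbours in this order did not differ beyond their spread. miR-365b-3p was above miR-365a-3p in 5 of 6 libraries, by 1.03-fold. miR-193b-3p was above miR-193b-5p in 4 of 6 libraries, with a log2 difference in level of 0.19 ± 0.25 (SD, n = 6). miR-365a-5p was above miR-193a-3p in 3 of 6 libraries. miR-193a-3p was above miR-365b-5p in 6 of 6 libraries by 1.57-fold, although their ranges overlapped. The steps between the bands were larger than the spread, because miR-365a-3p exceeded miR-193a-5p by 6.66-fold and miR-193b-5p exceeded miR-365a-5p by 8.79-fold, each in 6 of 6 libraries. Within the middle band, miR-193a-5p exceeded miR-193b-3p by 2.18-fold in 6 of 6 libraries.

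The arms of the 2 miR-193 precursors were counted in different proportions. For miR-193a, the 5p arm was 26.2 times as abundant as the 3p arm on average, with 17.4-fold the lowest and 37.1-fold the highest value of the 6 libraries. For miR-193b, the arms were closer to equal, with a 5p to 3p ratio of 0.876 on average and 0.656 to 1.05 over the libraries. The difference between the log2 ratios of the precursors was 4.90 ± 0.19 (SD, n = 6), and it was above 0 in 6 of 6 libraries and differed by 0.079 between the groups. This difference was chosen after its values were seen and is given without a test, and a bias of ligation would be the same in all libraries. Since the 3p arms carry the shared seed, most counts with the seed ACUGGCC came from miR-193b-3p, which had 777 counts over the 6 libraries, against 67 for miR-193a-3p.

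The 3p sequence of miR-365a and miR-365b had far more counts than either 5p sequence, but how much of it came from each precursor is not known. The rows of miR-365a-3p and miR-365b-3p cannot be assigned to a locus, because their sequence is the same, and yet their counts were not equal. miR-365a-3p had counts of 1667, 1642 and 2106 in the overexpression samples and of 2424, 1774 and 1776 in the controls. miR-365b-3p had counts of 1733, 1695 and 2195 in the overexpression samples and of 2359, 1876 and 1806 in the controls. The log2 ratio of miR-365b-3p to miR-365a-3p was 0.054 ± 0.0072 with overexpression and 0.022 ± 0.060 without it (SD, n = 3 each), and control replicate 1 alone was below 0. Of 10 mature sequences in the table under more than 1 name, only this pair and miR-199a-3p with miR-199b-3p had a mean of at least 100 counts in both rows, and for the latter the log2 ratio of the second row to the first was -0.98. How reads that match several miRNAs were divided is not given in the sources used here.

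**Figure D2:**
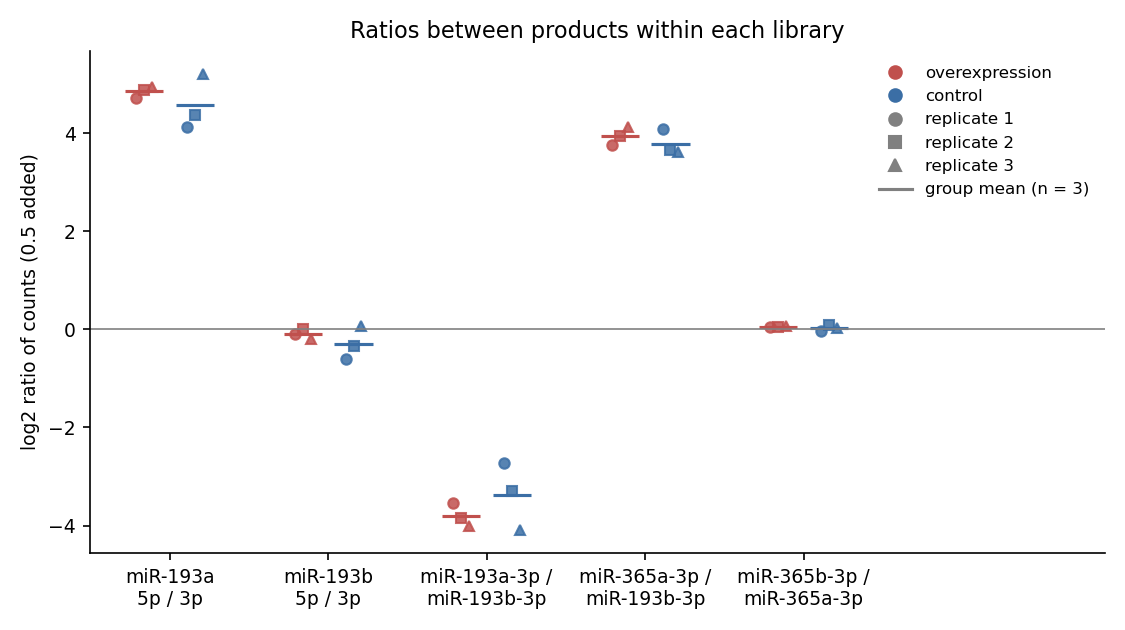
Log2 ratio of counts (0.5 added to each) between products of the same library, with points for the 3 overexpression and 3 control samples by replicate and a line at each group mean. The 5p to 3p ratio of miR-193a lies between 4.12 and 5.21 and that of miR-193b between -0.61 and 0.077, and the groups overlap in every ratio shown.

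The comparison of the groups asked whether the products changed when hsa_circ_0098181 was overexpressed. No change of the 6 miRNAs passed the test. Of the 6, 5 had enough counts to be tested, and 0 of the 5 passed at an adjusted p under 0.05 in edgeR's quasi-likelihood test, as did 0% of all 552 miRNAs tested. At an unadjusted p under 0.05 it was again 0 of the 5, against 9.06% of the 552. The groups overlapped for all 5, whereas they did not overlap for 15.4% of the 552. The fitted log2 fold change was negative for 3 and positive for 2 of the 5, with a median of -0.099, against 0.0038 over all miRNAs tested. The adjusted p ranged from 0.583 for miR-193a-5p to 0.931 for miR-193b-5p in edgeR's test.

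miR-365a-3p, the most abundant of the 6 miRNAs, was at 210, 211 and 263 CPM in the overexpression samples and at 224, 198 and 229 CPM in the controls. Overexpression replicate 3 was the highest of the 6 samples, and the other overexpression samples lay within the range of the controls. The group means were 228 ± 30.3 and 217 ± 16.3 CPM (SD, n = 3 each). The log2 fold change was 0.071 (95% confidence interval -0.18 to 0.32, standard error 0.12, edgeR adjusted p = 0.818), which is a fold of 1.05 with an interval of 0.882 to 1.25. The direction turned without overexpression replicate 3 (-0.035) and with the library size alone (-0.045), where the median of all miRNAs was -0.11. When the identical rows were added together, the level was 464 ± 62.7 CPM with hsa_circ_0098181 and 437 ± 26.9 CPM with the control plasmid (SD, n = 3 each), and the log2 fold change was 0.088 (95% confidence interval -0.15 to 0.33, adjusted p = 0.780 from edgeR).

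miR-193a-5p, the main arm of miR-193a, was at 34.7, 28.3 and 28.8 CPM in the overexpression samples and at 34.5, 33.6 and 40.5 CPM in the controls. Overexpression replicates 2 and 3 lay below every control, while overexpression replicate 1 lay within their range. The group means were 30.6 ± 3.55 and 36.2 ± 3.76 CPM (SD, n = 3 each), and the spread was larger than the counting error of 1.97 and 2.01 CPM. The log2 fold change was -0.24 (95% confidence interval -0.52 to 0.038, standard error 0.13, edgeR adjusted p = 0.583). In the deposited TPM, which carry no correction for composition, the groups just failed to overlap, with 34.6 the highest overexpression value and 34.7 the lowest control value. The share of all miRNAs without overlap on that scale was not computed. With the library size alone, the median log2 fold change of all 552 miRNAs was -0.11. At an unadjusted p under 0.05 in edgeR's test, 69 of them were then lower and 1 was higher.

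miR-193b-3p, which carries most of the shared miR-193 seed, was at 15.3, 13.7 and 14.97 CPM in the overexpression samples and at 13.1, 15.7 and 18.7 CPM in the controls. The overexpression samples lay inside the range of the controls. The log2 fold change was -0.099 (95% confidence interval -0.44 to 0.24, standard error 0.16, edgeR adjusted p = 0.808), and without control replicate 3 it was 0.013.

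miR-193b-5p was at 14.3, 13.9 and 13.1 CPM in the overexpression samples and at 8.58, 12.4 and 19.7 CPM in the controls. The 3 overexpression samples were close together, within the counting error of 1.32 CPM (SD 0.626), whereas the controls ran from the lowest to the highest value of the 6, with an SD of 5.64 CPM against a counting error of 1.25 CPM. The log2 fold change was 0.046 (95% confidence interval -0.46 to 0.55, standard error 0.24, edgeR adjusted p = 0.931). It rested on single controls, since it was 0.39 without control replicate 3 (unadjusted p = 0.0266, adjusted p = 0.153 from edgeR), -0.22 without control replicate 1 and -0.0099 without control replicate 2. With the library size alone it was -0.079.

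The remaining products had few counts. miR-193a-3p had counts of 10, 7 and 7 in the overexpression samples and of 21, 14 and 8 in the controls. In CPM, the lowest control (1.03 CPM) lay below the highest overexpression sample (1.26 CPM). The log2 fold change was -0.61 (95% confidence interval -1.48 to 0.27, standard error 0.41, edgeR adjusted p = 0.617), so that a fall to 0.358 or a rise to 1.202 of the control level was within the interval.

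miR-365b-5p, which can only come from MIR365B among these precursors, had counts of 6, 6 and 3 in the overexpression samples and of 12, 7 and 7 in the controls, and it was left out by the filter on low counts. The overexpression samples, at 0.755, 0.770 and 0.374 CPM, lay below the controls, at 1.11, 0.782 and 0.901 CPM, but the nearest samples of the groups, 0.770 and 0.782 CPM, were closer than 1 count is worth. Of all 1366 miRNAs with a count, 4.69% had every overexpression sample below every control. The means were 0.633 ± 0.224 and 0.930 ± 0.165 CPM (SD, n = 3 each; two-sided exact permutation test, p = 0.1, the smallest that 3 against 3 can give). By counting error alone, the ratio of the groups was 0.669, with an exact 95% interval of 0.329 to 1.31, so that the groups were not separated beyond counting error.

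The 5p arm of miR-365a, miR-365a-5p, had the lowest fold change of the 8 products. It had counts of 8, 4 and 12 in the overexpression samples and of 21, 28 and 15 in the controls. Of the 552 miRNAs tested, 15.4% had groups without overlap and 9.06% an unadjusted p under 0.05 in edgeR's test. For miR-365a-5p, the overexpression samples, at 1.01, 0.513 and 1.497 CPM, lay below all controls, at 1.94, 3.13 and 1.93 CPM. The log2 fold change was -1.19 (95% confidence interval -2.08 to -0.30, standard error 0.41, unadjusted p = 0.0125, edgeR adjusted p = 0.314), and it did not pass the test. The value was -1.31 when control replicate 3 was left out (edgeR adjusted p = 0.0585, where 9.91% of 565 miRNAs were called and 0 of the 5 miRNAs tested above). The log2 ratio of miR-365a-3p to miR-365a-5p was 7.84 ± 0.59 with overexpression and 6.54 ± 0.50 in the controls (SD, n = 3 each), where the 3p row may hold reads of MIR365B. This ratio was chosen after its values were seen and is given without a test.

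**Figure D3:**
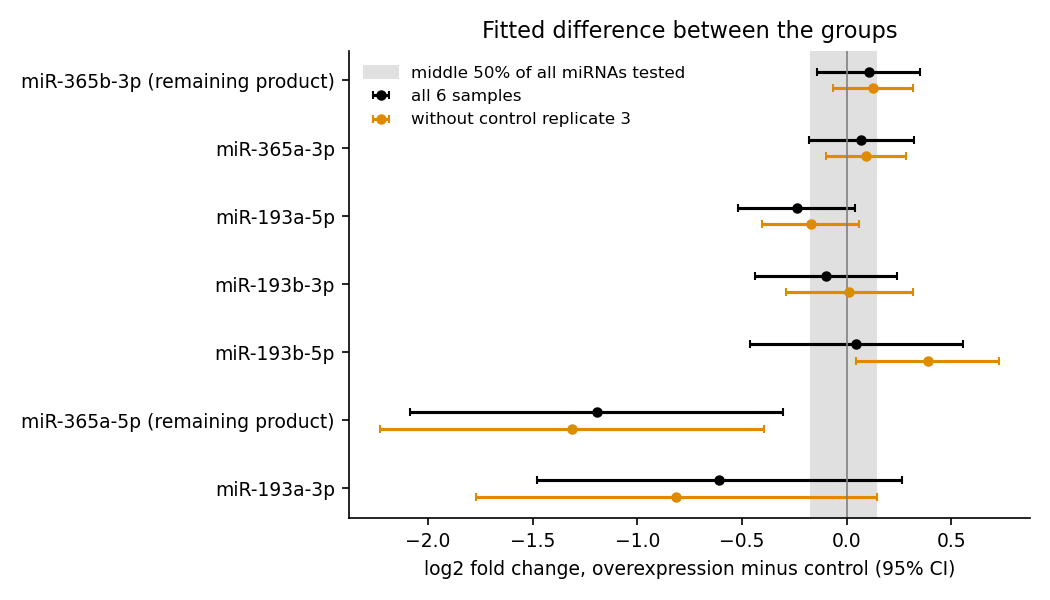
Log2 fold change (overexpression minus control) with its 95% confidence interval from edgeR for the 7 products tested, with all 6 samples in black and without control replicate 3 in orange, and the middle 50% of all miRNAs tested (-0.17 to 0.14) in grey. The intervals of the 5 chosen miRNAs all include 0 with 6 samples, and that of miR-193b-5p moves above 0 without control replicate 3. In that fit, 119 of all 565 miRNAs had an unadjusted p under 0.05 in edgeR's test.

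Ratios between the products of a library, which do not depend on its size, were compared for 5 pairs. The log2 ratio of miR-193a-5p to miR-193a-3p was 4.85 ± 0.12 with overexpression and 4.57 ± 0.57 in the controls, and that of miR-193b-5p to miR-193b-3p was -0.092 ± 0.10 and -0.29 ± 0.35 (SD, n = 3 each). The log2 ratio of the paralogs miR-193a-3p and miR-193b-3p was -3.80 ± 0.23 and -3.37 ± 0.69. The log2 ratio of the cluster partners miR-365a-3p and miR-193b-3p was 3.94 ± 0.18 and 3.78 ± 0.27, and that of miR-365b-5p and miR-193a-5p was -5.52 ± 0.49 and -5.21 ± 0.27. The latter ratio is uncertain, because miR-365b-5p had only 3 to 12 counts per sample. As miR-365b-5p was under 10 counts in most samples, the plan was to give this ratio by counts only, and its test departs from that. The ratios with miR-193a-3p, at 7 to 21 counts per sample, are uncertain as well. In all 5 pairs the groups overlapped, with unadjusted p of 0.4 or 0.5 and 0.5 after Benjamini-Hochberg adjustment over the 5 (two-sided exact permutation tests, which cannot go below 0.1). Although the precursors of each cluster lie on the same strand, miR-365a-3p was 14.5 times as abundant as miR-193b-3p, and since its sequence can also come from MIR365B, this is not a ratio of a single cluster.

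The pattern of miR-365a-3p over the 6 samples was most like that of miR-365b-3p, its copy, with a root mean square difference of 0.038 on the log2 scale after each miRNA's own mean was subtracted. Among 151 miRNAs with at least 100 CPM, miR-483-3p (0.069) and miR-7-1-3p (0.081) followed, and the median was 0.17. All of these had their highest value in overexpression replicate 3, at 0.25 above its own mean for miR-365a-3p, 0.30 for miR-483-3p and 0.14 for miR-7-1-3p.

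Other miRNAs with known roles in the same biology were counted by list, and the lists share some miRNAs. Of 20 miRNAs linked to brown and beige fat, 16 were tested and 0 passed edgeR's test at an adjusted p under 0.05. The median log2 fold change of these 16 was 0.038, with 10 positive and 6 negative. The smallest unadjusted p belonged to miR-106b-5p, a miR-17 family member, with a log2 fold change of -0.37 (adjusted p = 0.314 from edgeR), and to miR-182-5p, of the miR-183 cluster, with 0.19 (adjusted p = 0.421 from edgeR). Without control replicate 3, 4 of the 16 passed edgeR's test at an adjusted p under 0.05, miR-106b-5p (-0.50) and miR-182-5p (0.22) among them, where 9.91% of all 565 miRNAs did.

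The 11 miRNAs described as repressors of PPARA included miR-18a-3p. The study chose it from sequencing of Huh7 cells overexpressing hsa_circ_0098181 together with target prediction. By other measures, it reported a decrease of miR-18a-3p by RT-qPCR in Huh7 and Hep3B cells and in xenografts, and binding by luciferase assay. It also reported that hsa_circ_0098181 and miR-18a-3p were both recovered with Ago2 by immunoprecipitation. A miR-18a-3p mimic was reported to partly reverse the effects of hsa_circ_0098181, including the rise of PPARA. Of the 11 miRNAs, 10 were tested here and 0 passed, with a median log2 fold change of 0.055. The smallest unadjusted p belonged to miR-21-5p, with a log2 fold change of 0.13 (adjusted p = 0.562 from edgeR), and to miR-27a-3p, with -0.13 (adjusted p = 0.617 from edgeR). Without control replicate 3, again 0 of the 10 had an adjusted p under 0.05, against 9.91% of all 565 miRNAs. Of 15 miRNAs linked to liver lipids, 12 were tested and 0 passed, with a median of -0.021. The smallest unadjusted p belonged to miR-33b-3p, from the SREBF1 intron, with a log2 fold change of -0.56 (adjusted p = 0.306 from edgeR), and to miR-128-3p, a repressor of the LDL receptor, with 0.25 (adjusted p = 0.314 from edgeR). Without control replicate 3, 4 of the 12 had an adjusted p under 0.05, both of these among them, against the same 9.91% of all miRNAs.

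PPARA is the mRNA that the study followed, and its 3′UTR was searched on the sense strand for the 7 bases complementary to each seed. In PPARA-201 (GENCODE release 29), whose 3′UTR has 8376 bases, the site GGCCAGT for the miR-193 3p arms and the site GGGCATT for the miR-365a and miR-365b 3p arms did not occur. Among 453 genes whose 3′UTR was within 20% of this length, 38.2% had GGCCAGT and 35.1% had GGGCATT. The site AAGTCCC for the miR-365a and miR-365b 5p arms was also not found (30.7% of the 453). The site AAGACCC for miR-193a-5p occurred 3 times (35.5% of the 453 had it) and the site AAACCCC for miR-193b-5p occurred 1 time (54.3% of the 453). The sites are shown with their neighbouring bases because miR-193a-5p is the most abundant miR-193 product, with the site in capitals and its distance after the stop codon.
AAGACCC, 1017 bases: cagagtctcAAGACCCccgctct
AAGACCC, 2039 bases: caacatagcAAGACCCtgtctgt
AAGACCC, 7554 bases: gtttcgctaAAGACCCttcacta
AAACCCC, 4259 bases: tgcagtgacAAACCCCcctcccc
A match of letters is no evidence of binding, and the missing sites say only that these letters are not in this transcript.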

How the data were processed

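miRNA sequencing of 6 Huh7 samples, 3 with the hsa_circ_0098181 plasmid and 3 with the control plasmid, was used, grouped by sample title. The authors deposited counts of reads per mature miRNA and sample, not normalized, and TPM values, which equal counts scaled to each library's total to within 0.00303. The submitters' processing notes name hg38, TopHat2 2.0.9 and Bowtie, and no miRNA annotation, trimming or rule for reads that match several miRNAs is given in the sources used here, so counts of near-identical miRNAs are uncertain. The total was 7144798 to 10786295 counts per sample.

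Counts were tested across all miRNAs in R 4.3.3 with edgeR 4.0.16 (filterByExpr with a minimum count of 10 and a minimum total of 15, TMM factors, quasi-likelihood test on the group, two-sided, Benjamini-Hochberg adjustment, threshold 0.05). Intervals of the fold change rest on the fitted spread, and counting errors and exact intervals cover counting error only. Ratios used counts with 0.5 added and exact permutation tests (scipy 1.17.1). The alternatives were DESeq2 1.42.0, other scalings and filters, limma 3.58.1 on log2 CPM after adding 1 or 0.1, a replicate block, another added count, and leaving out each sample. The sum of the identical miR-365 rows was added after the data were seen. The scripts for the test were tried on simulated counts.

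The miRNAs and lists were chosen with earlier results of these data known. Named were all products of the 4 precursors, the 3 miRNAs most like the most abundant of the 6 among those with at least 100 CPM, and the 2 with the smallest unadjusted p in each of 3 lists. Positions and sequences came from RefSeq and GENCODE release 29.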

Additional observations from a re-analysis of the deposited data

How the results depend on the processing

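In no alternative did 1 of the 5 chosen miRNAs have an adjusted p under 0.05. Over all miRNAs, 0 had one (50 at an unadjusted p under 0.05), and there were 3 for the library size alone, 6 without a filter on low counts, 0 in DESeq2 (41 unadjusted) and in limma (35 or 32 unadjusted), and 0 to 56 when a sample was left out, where 56 belonged to control replicate 3 (119 unadjusted). The median log2 fold change of the 5 was -0.099. Over the fits that left out a sample, it ranged from -0.24 (without control replicate 1) to 0.013 (without control replicate 3). Over the same fits alone, the log2 fold change of miR-193b-3p ranged from -0.24 to 0.013 and that of miR-193b-5p from -0.22 to 0.39. That of miR-365a-3p ranged from -0.035 to 0.12 and that of miR-365b-3p from -0.0046 to 0.16. With the library size alone, the values were -0.079 for miR-193b-5p, -0.045 for miR-365a-3p and -0.011 for miR-365b-3p, and without the most abundant miRNA in the library size -0.038 for miR-193b-5p and -0.0070 for miR-365a-3p. The median of all miRNAs was then -0.11 and -0.075, against 0.0038. For the fits on fewer samples the cause was not tested. miR-193a-5p and miR-193a-3p kept a negative value in all alternatives that gave one, from -0.35 to -0.17 and from -0.81 to -0.31, as did miR-365a-5p, from -1.58 to -0.74. The 5 ratios kept the sign of their difference between the groups throughout, but some differences came close to 0. With 5 added to each count, that of miR-365b-5p to miR-193a-5p was -0.010. Without control replicate 1, that of miR-193b-5p to miR-193b-3p was 0.041.

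Replicate numbers were not used as pairs in the main test. The deviations of same-numbered samples correlated at -0.16, 0.17 and 0.17 over 248 miRNAs. Samples with different numbers were not compared in this way, so that these values cannot decide whether the numbers pair samples. With the replicate block the median of the 5 was -0.095 with 0 calls over all miRNAs (42 unadjusted). miR-365b-5p had a value only without the filter, -0.58 (adjusted p = 0.775 from edgeR). At 41 to 88 counts over all samples, miR-193a-3p, miR-365a-5p and miR-365b-5p allow no firm statement.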
